A study of Mus musculus with 10 samples.

Results

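RNA-seq levels of 48 extracellular matrix genes were read in ASZ001 cells, a mouse basal cell carcinoma (BCC) line, after inhibition of ALK5 or of AP-1. The genes were chosen by symbol as collagens, matrix glycoproteins, matricellular proteins, proteoglycans, collagen-modifying enzymes and latent TGFß binding proteins. All 48 had a row in both deposited tables, among 17658 and 16719 named genes. In the first experiment cells received 10 µM of the ALK5 inhibitor SB431542 (n = 3 libraries) or the vehicle DMSO (n = 3). In the second they received 20 µM of the AP-1 inhibitor T-5224 (n = 2) or DMSO (n = 2). All 10 libraries came from cells held for 24 h in low serum (0.2% chelated FBS with 0.05 mM CaCl2), so the DMSO libraries are serum-starved as well, and all came from 1 cell line. Values are RPKM, reads per kilobase of gene normalised to library depth, so levels can be set side by side between genes. The experiments were tabulated separately, and each inhibitor was tested against its own DMSO libraries alone.

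The matrix consists of collagen networks, adhesive glycoproteins and proteoglycans that cells secrete and then assemble outside. In skin, keratinocytes make much of the basement membrane on which they sit, including collagen IV, perlecan and the collagen VII anchoring fibrils, whereas dermal fibroblasts are the main source of fibrillar collagens. TGFß, which signals through the receptor kinase ALK5 to Smad2 and Smad3, is a well-known inducer of matrix genes, and several matrix proteins bind TGFß or release it from its latent form. AP-1, a dimer of Jun and Fos family proteins, also acts on many genes of adhesion and matrix.

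The tables hold between 31.9 and 51.5 M reads per library, as worked out from short RNAs whose RPKM lie on a ladder of whole reads. Members together summed to 1953 to 2024 RPKM in the DMSO libraries and 1519 to 1540 RPKM with SB431542, and to 1915 to 2004 RPKM and 1242 to 1246 RPKM in the T-5224 experiment. DMSO replicate 1 of the SB431542 experiment stood farther from its group than the other DMSO libraries of that table. The SD of its log2 differences from the mean of the other libraries of its group was 0.272, beside 0.161 and 0.190. Keratinocyte markers were abundant, since all 12 of 12 listed were above the filter in both tables. Of 12 fibroblast markers, Dcn alone passed 1 RPKM, and Pdgfrb, Thy1, Twist2, Prrx1 and Fap were at or below 0.082 RPKM wherever they were listed. As a check of the ALK5 inhibitor, the TGFß target Pmepa1 fell from 46.1 to 3.29 RPKM (log2 fold change −3.62, adjusted p = 9.50e-07, limma). All 5 targets tested were lower at an adjusted p under 0.05, as were 10.0% of all genes. Smad7 fell least (−0.80, adjusted p = 0.00194). With T-5224, 2 of the 5 were lower and 1 higher (39.4% and 40.3% of all genes). Pmepa1 was among the lower, from 53.3 to 20.6 RPKM (−1.35, adjusted p = 1.42e-09).

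In DMSO, the RNA levels of few matrix genes were high and those of many were near zero. 6 members exceeded 100 RPKM on average in both experiments, which were Fn1, Tnc, Thbs1, Sparc, Tgfbi and Serpinh1. At the other end, 15 members stayed under 0.5 RPKM in all 10 libraries. These include both chains of collagen I (Col1a1 and Col1a2), Col3a1, Col5a1 and Col5a2 among fibrillar collagens, the elastic fibre genes Fbn1 and Eln, the small proteoglycan Bgn, the laminin-to-collagen linker Nid1, the cross-linking enzymes Lox, Loxl1 and Loxl3, and Ltbp2, Col4a6 and Col6a3. Of these and Loxl2, 8 genes were at 0 in at least 1 library, 30 values in all, where 3 reads would have given between 0.0049 and 0.032 RPKM.

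**Figure D1:**
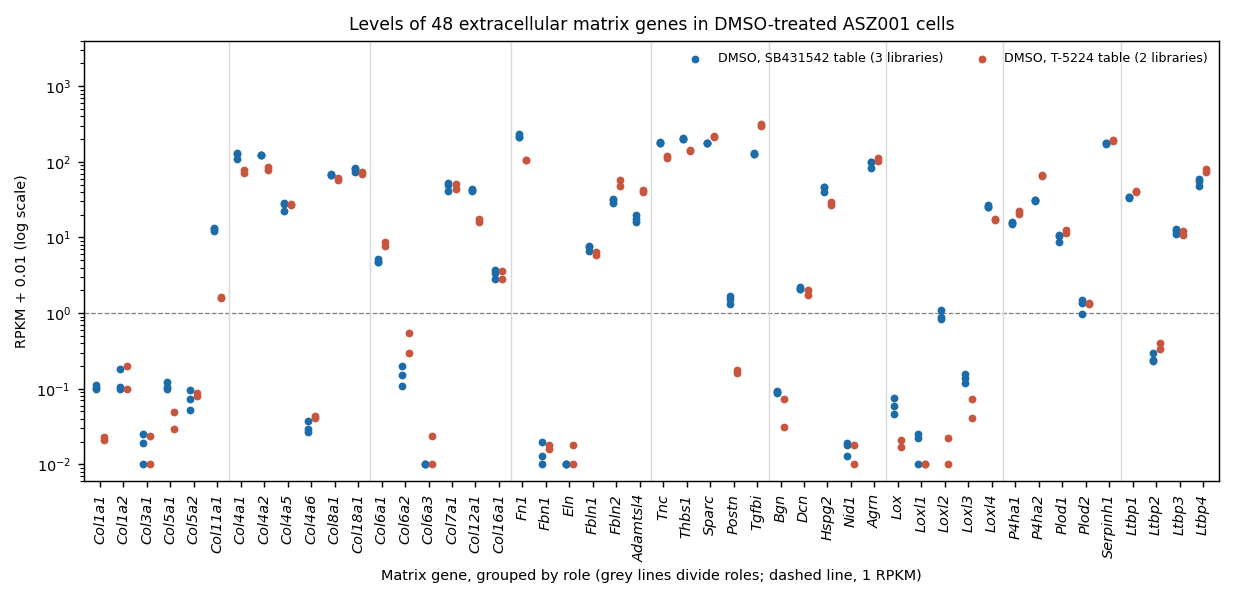
RPKM plus 0.01 on a log axis for each of the 48 matrix genes in each DMSO library (blue, 3 libraries of the SB431542 experiment; red, 2 libraries of the T-5224 experiment), grouped by role. Collagen I, III and V chains lie under 0.5 RPKM, while Col4a1, Col4a2, Col8a1, Col18a1, Fn1, Tnc, Thbs1, Sparc and Tgfbi lie between 57.3 and 320 RPKM.

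Partner chains of a collagen were not always present together. Col6a1, whose product forms beaded microfibrils with the Col6a2 and Col6a3 chains, was at 4.76 to 5.20 RPKM in DMSO of the first experiment and 7.75 to 8.58 RPKM in the second, whereas Col6a2 did not exceed 0.192 and 0.532 RPKM there and Col6a3 did not exceed 0.014 RPKM in any library. Col4a1 and Col4a2, which encode the chains of the common collagen IV trimer, were near each other, with DMSO means of 122 ± 10.8 and 122 ± 0.739 RPKM (SD, n = 3) and of 74.1 ± 4.25 and 81.3 ± 4.46 RPKM (SD, n = 2). Both lie on chromosome 8 on opposite strands, with starts 21 bases apart. Col4a5 was at 26.2 ± 3.47 RPKM (SD, n = 3) and 27.3 ± 0.793 RPKM (SD, n = 2), and its head-to-head neighbour Col4a6 did not exceed 0.041 RPKM. Among lysyl oxidases, which cross-link collagen and elastin, Loxl4 stood at 26.2 ± 0.964 RPKM (SD, n = 3) and 17.1 ± 0.426 RPKM (SD, n = 2). The other 4 lysyl oxidases were below the filter in both tables.

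DMSO levels differed between the tables for some members, a difference that was not tested since they were normalized apart. Col11a1 was at 12.8 ± 0.620 RPKM in one and 1.59 ± 0.0438 RPKM in the other, Postn at 1.5 ± 0.181 and 0.160 ± 0.0099 RPKM, and Tgfbi at 129 ± 1.81 and 310 ± 15 RPKM. Loxl2 lay between 0.835 and 1.11 RPKM in the 6 libraries of the first table and reached at most 0.012 RPKM in the second.

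A gene was tested where its mean RPKM over the libraries of its table was at least 1. That left 31 members for SB431542 and 29 for T-5224, with 17 in neither. Postn and Plod2 were tested with SB431542 alone. The filter was passed by way of the DMSO group, with the treated mean under 1 RPKM, by Postn and Plod2 with SB431542 and by Col11a1, Col16a1 and Adamtsl4 with T-5224.

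With SB431542, 16 of the 31 members tested were lower at an adjusted p under 0.05 (51.6%), where 10.0% of all genes tested were lower. Higher were 4 members (12.9%), beside 10.2% of all genes. Past the 2-fold limit, 3 members were down (9.68%, background 0.581%) and 0 were up (background 0.231%). The median log2 fold change was −0.30 over the 31 members that passed the filter, −0.17 over all 48 with no filter, and 0.008 over all genes tested. Without SB431542 replicate 2 or 3, 2 members were higher. In 19 members every SB431542 library lay below every DMSO library (background 21.3%), and in 4 members above (background 23.9%). Without DMSO replicate 1, 20 members were lower, while 4 were higher and 3 past the 2-fold limit as before. Col4a1, Col4a5, Col18a1, Col16a1 and Agrn were among the 20, with log2 fold changes of −0.25, −0.28, −0.24, −0.37 and −0.22. Postn and Plod2 were under the filter in that fit. The share of all genes lower in it was not worked out, so the 10.0% above is not its background.

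T-5224 was followed by changes in far more of all genes, so its counts have a higher background. Of 29 members tested, 21 were lower (72.4%, background 39.4%) and 4 were higher (13.8%, background 40.3%). Down more than 2-fold were 12 members (41.4%, background 10.6%), and up more than 2-fold was 1 (3.45%, background 10.4%). The median log2 fold change was −0.79 over these 29 members and −0.13 over all 48 with no filter, beside 0.003 for all genes tested. Both T-5224 libraries lay below both DMSO libraries in 21 members (background 44.5%) and above them in 5 (background 45.1%). Without the DMSO library numbered 2 in that table, 17 members were lower. A fit that leaves out 1 library of this experiment has 1 library in that group, assumed to vary like the other group, whose 2 libraries alone give the spread, so the values of such fits below show which calls depend on 1 library and no more. Since the samples are bulk RNA, fewer expressing cells and less RNA per cell cannot be told apart here.

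**Figure D2:**
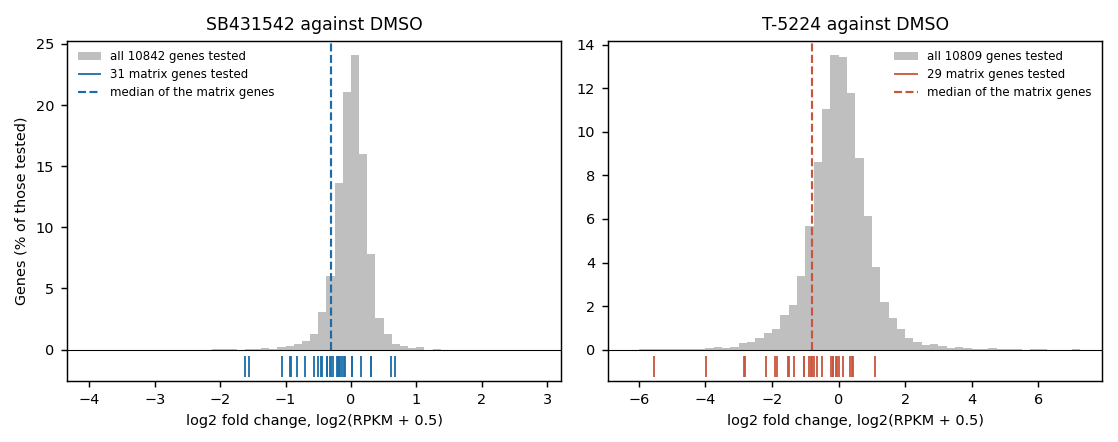
Histograms of the log2 fold change of all genes tested (grey, percent of genes per bin) with SB431542 (left, 10842 genes) and T-5224 (right, 10809 genes); ticks below mark the 31 and 29 matrix genes and the dashed line their median. The median of the matrix genes lies to the left of the middle of all genes in both panels, at −0.30 and −0.79.

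The matricellular genes, whose products act on cells more than they build fibres, had the highest summed level of the groups in DMSO. Of those tested, 5 of 5 were lower with SB431542 and 4 of 4 with T-5224 (background 10.0% and 39.4%). Their summed mean level went from 689 to 385 RPKM with SB431542 and from 785 to 232 RPKM with T-5224. Thbs1 (chr2:117937612-117952869), which encodes thrombospondin 1, an activator of latent TGFß, was at 204, 208 and 198 RPKM in DMSO and 63.8, 69.3 and 72.7 RPKM with SB431542. The T-5224 experiment had it at 141 and 144 RPKM in DMSO and 8.39 and 8.72 RPKM with the inhibitor. In neither experiment did the groups overlap, and the log2 fold change of Thbs1 was −1.56 with SB431542 (SE 0.06, adjusted p = 2.62e-05, limma) and −3.98 with T-5224 (SE 0.06, adjusted p = 4.68e-13).

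Tnc (chr4:63620819-63681760) encodes tenascin C, an adhesion-modulating glycoprotein of wounds and tumor stroma. It was at 184, 175 and 176 RPKM in DMSO and 96.9, 102 and 103 RPKM with SB431542. With T-5224 it was at 15.7 and 16.3 RPKM, against 114 and 119 RPKM in DMSO. All treated libraries were below all DMSO libraries of their table, by a log2 fold change of −0.83 (SE 0.05, adjusted p = 1.46e-04) and −2.83 (SE 0.06, adjusted p = 5.33e-12). Tgfbi (chr13:56710920-56740923), an adhesion protein named for its induction by TGFß, was at 128, 128 and 131 RPKM in DMSO and 86.0, 79.0 and 72.1 RPKM with SB431542. Its values in the second experiment were 299 and 320 RPKM in DMSO and 82.0 and 83.3 RPKM with T-5224. Here too no treated library reached a DMSO library, and the log2 fold changes of Tgfbi were −0.71 (SE 0.07, adjusted p = 0.00103) and −1.90 (SE 0.05, adjusted p = 6.21e-11).

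Sparc (chr11:55208002-55233582), a collagen-binding matricellular protein, was at 175, 177 and 179 RPKM in DMSO and 141, 136 and 132 RPKM with SB431542. T-5224 libraries held 126 and 124 RPKM, against 218 and 215 RPKM in DMSO. Its falls were the smallest of the group in both experiments, with log2 fold changes of −0.37 (adjusted p = 0.00287) and −0.79 (adjusted p = 4.28e-08). Postn, which encodes periostin, a fasciclin-domain protein like Tgfbi, was at 1.31 to 1.67 RPKM in DMSO and 0.467 to 0.607 RPKM with SB431542 (log2 fold change −0.93, adjusted p = 0.00227), a value that ran from −1.30 to −0.69 with pseudocounts of 0.1 and 1. It was not tested with T-5224, where it did not exceed 0.167 RPKM in any library.

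**Figure D3:**
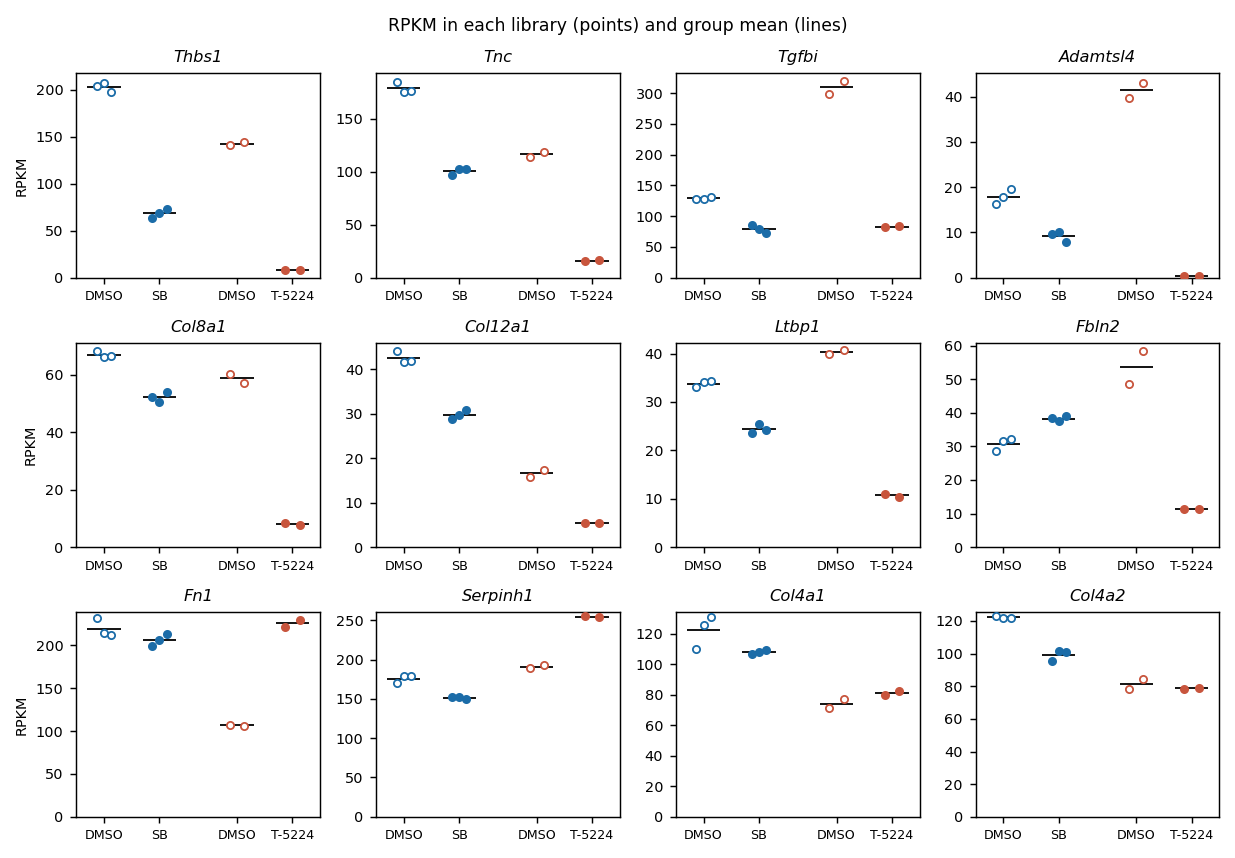
RPKM (linear axes from 0) of 12 matrix genes in each library, as open circles for DMSO and filled circles for the inhibitor, with lines at group means; blue, SB431542 experiment, red, T-5224 experiment. Thbs1, Tnc, Tgfbi, Adamtsl4, Col8a1, Col12a1 and Ltbp1 lie below DMSO with both inhibitors, Fn1 is above DMSO with T-5224, and Fbln2 and Serpinh1 moved opposite ways in the 2 experiments.

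Fibronectin, elastic fibre and fibulin genes went in several directions. With SB431542, 1 of 4 tested was lower and 2 were higher (background 10.0% and 10.2%). With T-5224, 2 were lower and 2 higher (background 39.4% and 40.3%). The summed mean of this group was 276 and 265 RPKM in DMSO and SB431542, and 208 and 246 RPKM in DMSO and T-5224. Adamtsl4 (chr3:95480124-95491840), a secreted protein that associates with fibrillin microfibrils, had the largest fall of all members with T-5224. It went from 39.8 and 43.0 RPKM to 0.429 and 0.360 RPKM, which is 0.953% of the DMSO mean and a log2 fold change of −5.55 (SE 0.09, adjusted p = 1.06e-12). With SB431542 it went from 16.2, 17.8 and 19.6 RPKM to 9.67, 10.1 and 7.80 RPKM, again without overlap (log2 fold change −0.92, SE 0.11, adjusted p = 0.00213).

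Fn1 (chr1:71632094-71699774), the gene of fibronectin, was the single member up more than 2-fold in either experiment. Its level was 107 and 106 RPKM in DMSO and 222 and 230 RPKM with T-5224 (log2 fold change 1.08, SE 0.05, adjusted p = 3.73e-09). With SB431542 the libraries were at 199.7, 206 and 213 RPKM and overlapped DMSO at 232, 215 and 212 RPKM (log2 fold change −0.09, adjusted p = 0.293). Apol7d, whose exons overlap Fn1 on the other strand, did not exceed 0.452 RPKM.

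The fibulins Fbln1 and Fbln2, which link basement membranes and elastic fibres to other matrix proteins, differed from each other. Fbln2 (chr6:91162449-91222534) was at 28.8, 31.6 and 32.1 RPKM in DMSO and 38.4, 37.4 and 39.0 RPKM with SB431542, and at 48.5 and 58.5 RPKM in DMSO and 11.5 and 11.4 RPKM with T-5224. It was thus higher with the ALK5 inhibitor (log2 fold change 0.31, adjusted p = 0.0121) and more than 2-fold lower with the AP-1 inhibitor (−2.17, SE 0.08, adjusted p = 6.35e-10). The rise was not called without SB431542 replicate 1, 2 or 3 (adjusted p = 0.0581, 0.0514 and 0.0653). Fbln1 was higher in both experiments, with log2 fold changes of 0.61 (adjusted p = 0.00221) and 0.44 (adjusted p = 7.77e-04).

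Of the 5 network and basement membrane collagens tested, 2 were lower with SB431542 and 3 with T-5224 (background 10.0% and 39.4%). The latter were all past the 2-fold limit (background 10.6%). Col8a1 (chr16:57624371-57754850), a short chain that assembles hexagonal networks, was at 68.2, 66.4 and 66.8 RPKM in DMSO and 52.2, 50.6 and 54.0 RPKM with SB431542. In the second experiment it was at 60.4 and 57.3 RPKM in DMSO and 8.33 and 7.74 RPKM with T-5224. The groups were apart in both, and the log2 fold changes were −0.36 (SE 0.05, adjusted p = 0.00361) and −2.80 (SE 0.06, adjusted p = 1.62e-11).

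The 2 major collagen IV chains had log2 fold changes between −0.30 and 0.13. Col4a1 (chr8:11198423-11312826) was at 110.1, 126 and 131 RPKM in DMSO and 106, 108 and 109 RPKM with SB431542, and at 71.1 and 77.1 RPKM in DMSO and 79.7 and 82.3 RPKM with T-5224. Neither difference passed the test (log2 fold change −0.18, adjusted p = 0.118, and 0.13, adjusted p = 0.0559), although the T-5224 value was called without the DMSO library numbered 2, with 1 DMSO library left (0.19, adjusted p = 0.0181). For Col4a2 (chr8:11312805-11449287) the values were 123, 122 and 122 RPKM in DMSO and 95.6, 102 and 101 RPKM with SB431542, which was lower (log2 fold change −0.30, adjusted p = 0.0069). Its T-5224 libraries, at 78.2 and 79.2 RPKM, lay within the range of 78.1 and 84.4 RPKM in DMSO.

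Col4a5 and Col18a1 fell with T-5224 and did not pass the test with SB431542. Without DMSO replicate 1 of the SB431542 experiment both were called lower there (log2 fold changes of −0.28 and −0.24). Col4a5 (chrX:137909928-138123778), the collagen IV chain of a less widespread trimer, was at 26.7 and 27.8 RPKM in DMSO and 10.6 and 10.4 RPKM with T-5224 (log2 fold change −1.33, SE 0.06, adjusted p = 4.86e-09). Its SB431542 libraries, at 23.7, 23.9 and 22.1 RPKM, overlapped DMSO at 22.3, 28.0 and 28.5 RPKM (adjusted p = 0.262). Col18a1 (chr10:76514923-76629293), a basement membrane collagen whose C-terminal part is endostatin, was at 69.1 and 74.1 RPKM in DMSO and 33.8 and 34.7 RPKM with T-5224. That log2 fold change was −1.05 (SE 0.06, adjusted p = 1.43e-08), just past the 2-fold limit, and was at −1.0 without the DMSO library numbered 2. Levels with SB431542 were 69.6, 70.3 and 68.5 RPKM, against 73.8, 80.5 and 83.6 RPKM in DMSO (log2 fold change −0.19, adjusted p = 0.0608).

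Collagens that form anchoring fibrils or sit on other fibrils were lower in 3 of 4 cases with SB431542 and 4 of 4 with T-5224 (background 10.0% and 39.4%). Col7a1 (chr9:108855631-108886920), the collagen of the anchoring fibrils beneath the epidermis, was at 40.9, 49.5 and 51.8 RPKM in DMSO and 22.7, 22.2 and 22.2 RPKM with SB431542. With T-5224 it was at 25.5 and 26.7 RPKM, against 43.3 and 51.4 RPKM in DMSO. The groups did not overlap, and the log2 fold changes were −1.06 (SE 0.09, adjusted p = 4.93e-04) and −0.84 (SE 0.08, adjusted p = 1.16e-06). Without DMSO replicate 3 the first was −0.99, inside the 2-fold limit.

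The fibril-associated collagens Col12a1 and Col16a1 were past the 2-fold limit with T-5224. Col12a1 (chr9:79446798-79566638) was at 15.9 and 17.3 RPKM in DMSO and 5.48 and 5.40 RPKM with T-5224 (log2 fold change −1.53, SE 0.08, adjusted p = 6.80e-09). It was at 44.0, 41.7 and 41.9 RPKM in DMSO and 28.8, 29.8 and 30.9 RPKM with SB431542 (−0.50, SE 0.05, adjusted p = 0.00131). No treated library of Col12a1 reached a DMSO library of its table. Col16a1 (chr4:129725084-129776527) was at 2.81 and 3.61 RPKM in DMSO and 0.737 and 0.898 RPKM with T-5224 (−1.49, SE 0.14, adjusted p = 1.28e-06). That log2 fold change ran from −1.84 to −1.21 over the alternative settings that kept every library. With SB431542 Col16a1 was at 2.68, 2.42 and 2.75 RPKM beside 2.83, 3.36 and 3.67 RPKM in DMSO, which did not pass (adjusted p = 0.0934). Once DMSO replicate 1 was left out, it was called lower (−0.37, adjusted p = 0.0108). Col6a1 was lower with both, by log2 fold changes of −0.57 (adjusted p = 0.0116) and −0.50 (adjusted p = 2.13e-04).

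Col11a1 (chr3:113733458-113923636), a chain of the minor fibrillar collagen XI, was the fibrillar collagen with enough expression to test. It went from 13.4, 12.1 and 12.8 RPKM in DMSO to 3.76, 3.64 and 4.04 RPKM with SB431542 (log2 fold change −1.62, SE 0.07, adjusted p = 2.78e-05). The T-5224 experiment started from lower levels, 1.56 and 1.62 RPKM, and ended at 0.468 and 0.554 RPKM (−1.05, SE 0.13, adjusted p = 2.08e-05). Groups were apart in both experiments. The second value is near the pseudocount and was −0.78 with a pseudocount of 1, −1.47 with 0.1, −0.89 after quantile normalization and −0.99 without T-5224 replicate 1. Thbs1 and Col11a1 were the 2 members past the 2-fold limit in both experiments.

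**Figure D4:**
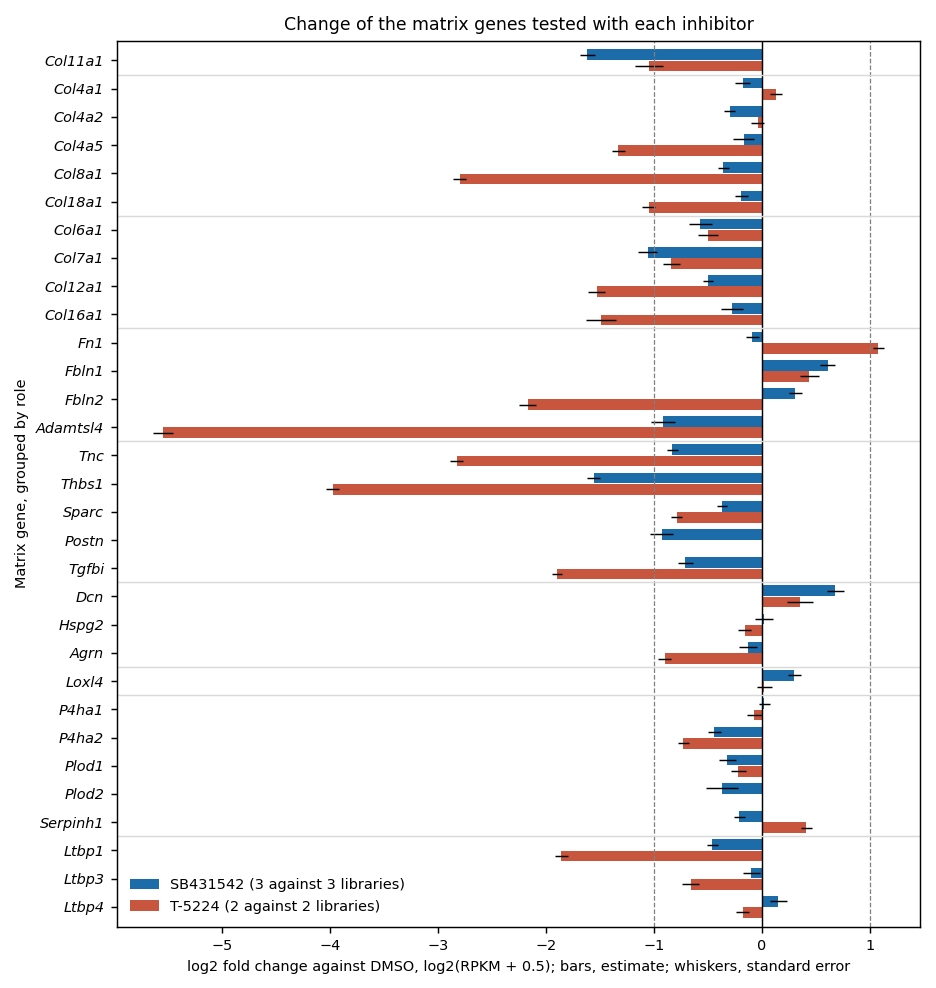
Log2 fold change against DMSO (bars, limma estimate on log2(RPKM + 0.5); whiskers, standard error) for each matrix gene tested, grouped by role, with SB431542 in blue and T-5224 in red and dashed lines at the 2-fold limit. The red bars of Adamtsl4, Thbs1, Tnc and Col8a1 reach −2.80 or below, and Fn1 has the single bar past the limit on the right.

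The basement membrane proteoglycans Agrn and Hspg2 did not pass the test with SB431542 and were lower with T-5224. Agrn (chr4:155539399-155571536), the heparan sulfate proteoglycan agrin, was at 84.0, 100.3 and 100.25 RPKM in DMSO and overlapped with 86.1, 88.7 and 83.8 RPKM with SB431542 (adjusted p = 0.259). Once DMSO replicate 1 was left out, it was called lower with SB431542 (log2 fold change −0.22, adjusted p = 0.00195). It fell with T-5224 from 103 and 112 RPKM to 57.9 and 57.0 RPKM (log2 fold change −0.90, SE 0.06, adjusted p = 4.79e-08). Hspg2, which encodes perlecan, was lower with T-5224 (log2 fold change −0.16, adjusted p = 0.0292), a call lost without T-5224 replicate 1 or 2 and without the DMSO library numbered 2 (adjusted p between 0.101 and 0.195). Dcn, the small leucine-rich proteoglycan decorin, was at 2.07 to 2.21 RPKM in DMSO and 3.53 to 4.0 RPKM with SB431542 (log2 fold change 0.68, adjusted p = 0.00178). Its rise with T-5224 was 0.35 (adjusted p = 0.0146) and was not called without T-5224 replicate 1 (adjusted p = 0.122) or the DMSO library numbered 2 (adjusted p = 0.058). Dcn is the one fibroblast marker above the filter, and the sum of the fibroblast markers, most of it Dcn, was 2.45 to 2.72 RPKM in DMSO and 3.70 to 4.14 RPKM with SB431542.

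Of the enzymes and chaperones that hydroxylate and fold collagen, 3 of 5 tested were lower with SB431542 (background 10.0%). With T-5224, 2 of 4 were lower and 1 was higher (background 39.4% and 40.3%). No change was past the 2-fold limit. Serpinh1 (chr7:106493885-106501740), the collagen chaperone HSP47, was at 169.9, 179 and 179 RPKM in DMSO and 153, 153 and 149.5 RPKM with SB431542, and at 189 and 193 RPKM in DMSO and 255 and 254 RPKM with T-5224. It was higher with T-5224 (log2 fold change 0.41, SE 0.05, adjusted p = 1.00e-05). The lower level with SB431542 (−0.21, adjusted p = 0.022) was not called in 5 of the fits that left out 1 library, all but that without DMSO replicate 1, with adjusted p between 0.0591 and 0.1. P4ha2, a catalytic subunit of collagen prolyl 4-hydroxylase, was lower with both, by log2 fold changes of −0.44 (adjusted p = 0.00302) and −0.73 (adjusted p = 2.13e-07), whereas P4ha1, the alternative subunit, passed in neither (adjusted p = 0.792 and 0.38). Plod1, a lysyl hydroxylase, was at −0.32 (adjusted p = 0.035) and −0.22 (adjusted p = 0.015), and both calls were lost in most fits without 1 library, with adjusted p of up to 0.127 and 0.0932. Plod2 did not pass with SB431542 (adjusted p = 0.121). The cross-linking enzyme Loxl4 (chr19:42668472-42687303) was at 25.5, 27.3 and 25.7 RPKM in DMSO and 30.6, 34.2 and 32.3 RPKM with SB431542 (log2 fold change 0.30, adjusted p = 0.015), a rise not called without SB431542 replicate 2 or 3 (adjusted p = 0.0723 and 0.0689). In the other experiment its groups overlapped, at 17.4 and 16.8 RPKM in DMSO and 18.4 and 16.3 RPKM with T-5224.

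The latent TGFß binding proteins, which hold TGFß in the matrix in its inactive form, were lower in 1 of 3 tested with SB431542 and 3 of 3 with T-5224 (background 10.0% and 39.4%). Ltbp1 (chr17:75404908-75791852) was at 33.0, 34.2 and 34.3 RPKM in DMSO and 23.6, 25.4 and 24.2 RPKM with SB431542. It was at 39.9 and 40.7 RPKM in DMSO and 11 and 10.5 RPKM with T-5224. With no overlap in either experiment, it had log2 fold changes of −0.46 (SE 0.05, adjusted p = 0.00166) and −1.86 (SE 0.06, adjusted p = 2.49e-10). Ltbp3 was lower with T-5224 (log2 fold change −0.66, adjusted p = 1.47e-05) and did not pass with SB431542 (adjusted p = 0.403). Ltbp4 (chr7:28090155-28122711) was at 73.8 and 81.3 RPKM in DMSO and 70.5 and 65.8 RPKM with T-5224 (−0.18, adjusted p = 0.0174), a call lost without the DMSO library numbered 2 (adjusted p = 0.15) and without T-5224 replicate 2 (adjusted p = 0.135). With SB431542 it was at 62.1, 61.2 and 58.1 RPKM and overlapped DMSO at 48.7, 55.2 and 60.0 RPKM.

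Across the 29 members tested in both experiments, 13 were lower with both inhibitors, which is 86.7% of the 15 lower with SB431542 and 61.9% of the 21 lower with T-5224. Among all 10462 genes tested in both, 798 were lower with both, which is 74.7% of the 1068 lower with SB431542 and 19.3% of the 4133 lower with T-5224. The 13 members lower with both were Col11a1, Col8a1, Col6a1, Col7a1, Col12a1, Adamtsl4, Tnc, Thbs1, Sparc, Tgfbi, P4ha2, Plod1 and Ltbp1. Among them, Plod1 lost both calls in most fits without 1 library. The experiments share no libraries. Fbln1 and Dcn were higher with both. Serpinh1 was lower with SB431542 and higher with T-5224, and Fbln2 the reverse. For both genes the SB431542 call was lost in several fits that left out 1 library, as given above. Lower with T-5224 and not past the test with SB431542 were 7 members (Col4a5, Col18a1, Col16a1, Hspg2, Agrn, Ltbp3 and Ltbp4). Of these, Col4a5, Col18a1, Col16a1 and Agrn were called lower with SB431542 once DMSO replicate 1 was left out (adjusted p = 0.0025, 0.00108, 0.0108 and 0.00195). Col4a1 and P4ha1 passed in neither, although Col4a1 was likewise called lower with SB431542 in that fit (adjusted p = 0.000744). The difference in response between the inhibitors was not tested, since the tables were normalized apart and the experiments differ in dose and in the number of libraries.

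Keratinocyte markers moved with the T-5224 result. Of 12 markers, 11 were lower and 8 of these more than 2-fold, with Epcam the one that was higher. Of all genes tested with T-5224, 39.4% were lower and 10.6% down more than 2-fold. The summed level of the markers was 16200 to 17100 RPKM in DMSO and 2890 to 3010 RPKM with T-5224. With SB431542 the sum was 12100 to 12300 RPKM in DMSO and 8530 to 9090 RPKM with the inhibitor. In that experiment 6 markers were lower and 2 higher (background 10.0% and 10.2%). The part of these shifts in the matrix results was not tested. Most markers of other cell types were under 1 RPKM. Beside Dcn, the listed markers that passed the filter were Pecam1 (endothelial), Cd68 (immune) and Mcam (muscle and pericyte), each in both tables. Pecam1 fell from 11.3 to 4.39 RPKM and Mcam from 9.96 to 1.81 RPKM with T-5224, while Cd68 rose from 17.6 to 33.0 RPKM. With SB431542, Pecam1 fell from 5.75 to 2.68 RPKM (log2 fold change −0.97, adjusted p = 0.00103), while Cd68, at 8.43 and 8.08 RPKM (adjusted p = 0.854), and Mcam, at 14.7 and 15 RPKM (adjusted p = 0.8), did not pass. The other markers of these cell types, where listed, were under 1 RPKM in every library, among them Vwf, Emcn, Ptprc, Des and Myh11.

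Promoter letters were read for the members with a RefSeq window, from 250 bases before to 50 bases after the start (GRCm38.p6), which covered 36 of the 48. The AP-1 letters TGAGTCA or TGACTCA, the same site read on either strand, occurred in 2 of 36 genes (5.56%), beside 5.95% of the 27025 genes with a window. The SMAD letters CAGACA or TGTCTG, again the 2 strands of 1 site, occurred in 12 of 36 (33.3%), beside 23.6% of all genes. Neither motif is contained in the other, and in Ltbp3 they share bases, with the SMAD letters starting 1 base and the AP-1 letters 6 bases before the start. The members without a window were Lox, Col12a1, Loxl2, Fn1, Plod2, Loxl1, Loxl3, Thbs1, Col5a2, Col1a1, Dcn and Eln. The sequences, 5′ to 3′ on the gene's strand, are the starts of 3 genes with large T-5224 falls and a window (Adamtsl4, Tnc and Col8a1) and the 2 genes with AP-1 letters (Ltbp3 and Col6a1, which had smaller falls, with log2 fold changes of −0.66 and −0.50). Each of the first 4 runs from 150 bases before to 10 bases after the RefSeq start, Col6a1 is given as the site alone, and capitals mark AP-1 letters. Each sequence was found once in NCBIM37, the assembly behind mm9, at the position named.
Adamtsl4, chr3:95491831-95491990, minus strand: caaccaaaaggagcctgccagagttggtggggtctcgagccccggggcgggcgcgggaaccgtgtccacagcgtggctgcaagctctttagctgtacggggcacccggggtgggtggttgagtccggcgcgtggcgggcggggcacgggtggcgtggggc
Tnc, chr4:63707961-63708120, minus strand: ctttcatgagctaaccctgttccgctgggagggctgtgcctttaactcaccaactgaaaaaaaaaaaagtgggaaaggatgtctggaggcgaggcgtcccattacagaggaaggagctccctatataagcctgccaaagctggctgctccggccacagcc
Col8a1, chr16:57754841-57755000, minus strand: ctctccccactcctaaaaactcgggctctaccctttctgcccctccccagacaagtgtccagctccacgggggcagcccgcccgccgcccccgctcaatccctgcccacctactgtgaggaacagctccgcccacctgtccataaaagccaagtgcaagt
Ltbp3, chr19:5740750-5740909, plus strand: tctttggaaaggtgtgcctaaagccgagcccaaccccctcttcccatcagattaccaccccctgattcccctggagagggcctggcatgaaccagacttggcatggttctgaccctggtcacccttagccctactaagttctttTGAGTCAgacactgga
Col6a1, chr10:76188863-76188889, minus strand: gctgatgctgTGACTCActcagctttg
The RefSeq start of Tnc lies 26210 bases upstream of the start in the NCBIM37 gene annotation, and that of Col6a1 lies 124 bases downstream, so that its site falls inside the annotated first exon. The windows of Adamtsl4, Tnc and Col8a1 hold no run of AP-1 letters, which says nothing of sites elsewhere.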

How the data were processed

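RNA was sequenced from ASZ001 cells in 10 libraries (TruSeq Stranded mRNA kit), per the labels, with 2 or 3 biological replicates per group according to the study. Before deposit, the authors mapped reads to mm9 (TopHat) and computed RPKM per gene (HOMER). The strand setting of the counting is not given in the sources used here. Groups follow the sample labels. DMSO columns that accompany T-5224 carry the numbers 1 and 2 in their table but 4 and 5 in the labels, so they were used as a group under the table's numbers. All 10 columns were used and 0 were left out.

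From these values, rows named by a date were dropped (22 and 23), and 10842 and 10809 genes averaging 1 RPKM or more were tested. The study tested counts, which are not analysed here, so limma 3.58.1 in R 4.3.3 was run on log2(RPKM + 0.5), two-sided and with a trend of variance on mean, over the whole table of each experiment, with Benjamini-Hochberg adjustment. All adjusted p-values are from limma. Lower and higher mean an adjusted p under 0.05, and the 2-fold limit is a log2 fold change beyond 1 in size. A fold change on this scale understates that of genes near 0.5 RPKM. Groups of 2 or 3 libraries limit the precision, and the spread between replicates sets the standard errors. The fit was tested on simulated data.

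The 48 members, their roles and the lists of other genes were chosen with earlier results of these data known, so no test of a list was run. Values in every library are given for members past the 2-fold limit and for the most abundant member of each role, and other members by counts or by the largest change of their role. Genes that are no members come from the lists of markers, TGFß targets and other matrix genes. Gene positions were taken from GENCODE (NCBIM37), and promoter windows from RefSeq (GRCm38.p6). Alternatives were pseudocounts of 0.1 and 1, no filter or a mean RPKM of at least 5, median centring, quantile normalization, no trend, unadjusted p, a replicate block for SB431542, and each library left out in turn. Leaving out a library of the T-5224 experiment leaves 1 library in its group, which is assumed to vary like the 2 of the other group, since these alone give the spread.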

Additional observations from a re-analysis of the deposited data

How the results depend on the processing

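The counts of members lower, down and up past the 2-fold limit stayed within 1.5 times their values under every alternative run, with ranges of 13 to 20 lower and 2 to 4 down with SB431542 and of 17 to 23 lower and 10 to 12 down with T-5224. The members' median log2 fold change with SB431542 (−0.30) was −0.17 with no filter and −0.26 with a mean RPKM of at least 5, and −0.31 to −0.21 with 1 library left out. With T-5224 (−0.79) it was −0.13 with no filter, −0.84 after quantile normalization and −0.77 to −0.72 with 1 library left out. Without a filter all 48 members enter, 17 of them under it in both tables. Members higher with SB431542 numbered 2 to 4 with 1 library left out.

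Signs changed in values near 0 that passed no test. With SB431542, Hspg2 (0.02) was −0.01 after quantile normalization and −0.06 to 0.06 without 1 library, and P4ha1 (0.02) was −0.01 to 0.05. With T-5224, Col4a2 (−0.04) was −0.10 to 0.01 without 1 library, Loxl4 (0.02) was −0.02 after quantile normalization and −0.06 to 0.10 without 1 library, and P4ha1 (−0.07) was −0.13 to 0. The cause was not tested. Of the other single-gene values, 423 of those with SB431542 kept direction and side of the threshold, 18 lost and 11 gained a call, and with T-5224 these numbers were 320, 14 and 4. Col18a1 with SB431542 passed after median centring (adjusted p = 0.0483) and quantile normalization (adjusted p = 0.0335), and Col4a2 with T-5224 after quantile normalization (−0.16, adjusted p = 0.0185). With T-5224, Ltbp4 lost its call with no filter (adjusted p = 0.0676) and with no trend (adjusted p = 0.0631), Hspg2 with no trend (adjusted p = 0.0626) and Dcn with no filter (adjusted p = 0.0532).

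With the replicate number of the labels as a replicate block for SB431542, 14 members were lower, 4 higher and 3 down past the 2-fold limit, and Plod1 (adjusted p = 0.075) and Serpinh1 (adjusted p = 0.0845) were no longer called. Deviations from the group mean of same-numbered DMSO and SB431542 libraries had correlations of −0.148, 0.151 and −0.0949. Other pairings of DMSO replicates 1, 2 and 3 gave −0.0218 to 0.167, −0.171 to 0.0197 and −0.0962 to 0.196. For replicate 2 alone the same-numbered value was the highest. With 3 libraries per group these values cannot settle a pairing, and the main fit used none. The T-5224 groups share no replicate number in the labels, and no paired fit was made.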

Other observations

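Matrix genes outside the 48 members gave a partly different picture. Of 71 other glycoproteins and proteoglycans looked up, 12 could be tested with SB431542, of which 3 were lower, 3 higher and 6 did not pass. With T-5224 15 could be tested, of which 13 were lower, 9 of them more than 2-fold, and 2 were higher. Of the 9, Fbn2, Prelp, Smoc1, Smoc2, Thbs2 and Fras1 passed the filter by way of the DMSO group, with T-5224 means under 1 RPKM. Papln, among the 3 higher with SB431542, passed it by way of the treated group, with a DMSO mean of 0.915 RPKM. The background was 10.0% lower and 10.2% higher with SB431542, and 39.4% and 40.3% with T-5224. Down more than 2-fold with T-5224 were 10.6% of all genes tested. Fbn2, the gene of fibrillin 2, was past the 2-fold limit in both experiments, at 4.5 ± 0.581 RPKM in DMSO and 1.66 ± 0.224 RPKM with SB431542 (SD, n = 3) and at 13.5 ± 1.78 RPKM in DMSO and 0.318 ± 0.0764 RPKM with T-5224 (SD, n = 2). Prelp, a small leucine-rich proteoglycan that binds collagen, fell from 18.8 ± 1.37 to 0.41 ± 0.0361 RPKM with T-5224 (log2 fold change −4.40, adjusted p = 1.25e-11).

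Other collagens were mostly unexpressed, with 20 of 22 found under 1 RPKM in every library of the first table and 14 of 17 in the second. The hemidesmosome collagen Col17a1 was at 740 ± 29.2 RPKM in DMSO, above every member, and was lower with SB431542 (508 ± 5.26 RPKM, log2 fold change −0.54, adjusted p = 0.00103) and with T-5224 (199 ± 2.41 RPKM against 723 ± 82.3 RPKM, −1.86, adjusted p = 6.49e-10). Col9a3 fell from 32.2 ± 2.55 to 4.88 ± 0.337 RPKM with T-5224 (−2.60, adjusted p = 1.20e-10). Col26a1 was at 0.048 ± 0.0424 RPKM in DMSO and 3.75 ± 0.569 RPKM with T-5224, a rise whose fold depends on the pseudocount. It passed the filter by way of the T-5224 group.

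Genes that process collagen changed in both directions. Of 15 tested in each experiment, 3 were lower and 3 higher with SB431542, and 6 were lower and 7 higher with T-5224. P3h1, among the 6, passed the filter by way of the DMSO group, with a T-5224 mean of 0.88 RPKM. Among all genes tested, 10.0% were lower and 10.2% higher with SB431542, and 39.4% and 40.3% with T-5224. The T-5224 counts are thus near the background. The prolyl 3-hydroxylase P3h2 rose from 5.47 ± 0.125 to 26.1 ± 0.992 RPKM with T-5224 (log2 fold change 2.15, adjusted p = 2.06e-10), and Pcolce, which encodes an enhancer of procollagen C-proteinase, fell from 6.62 ± 0.0467 to 2.2 ± 0.568 RPKM (−1.42, adjusted p = 1.18e-06). The median log2 fold change of these genes was 0.02 with SB431542 and 0.09 with T-5224. Beside these stand −0.30 for the 31 members tested with SB431542 and −0.79 for the 29 tested with T-5224. Over all 48 members with no filter the medians were −0.17 and −0.13. These lists were chosen with earlier results of the data known and were not tested as lists.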
